A study of Homo sapiens with 6 samples.

Results

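The genes described here are those that the pathway annotation deposited with the counts places in the KEGG term for neuroactive ligand-receptor interaction, which collects the receptors of neurotransmitters, hormones, peptides, lipids and nucleotides together with some of their ligands. The term was listed for 171 genes. The 8 of them that were also annotated to the complement and coagulation cascades, and the nuclear receptors NR3C1, THRA and THRB, were left out by the rule, which leaves 160 genes of the 29153 in the table. The rule used the annotation only and no measured value.

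RNA was sequenced from HepG2, an established human line labelled as derived from hepatocellular carcinoma (HCC), whose cells had received a short hairpin RNA by lentivirus. The control group, shNC, carried a control hairpin, and the other group, shLINC01977, carried a hairpin against LINC01977, a long non-coding RNA. Both groups were collected after 72 h, with 3 libraries each, and the comparison asks which genes differ when LINC01977 is knocked down. The data come from 1 cell line, and the labels do not say whether the 3 libraries of a group were separate cultures, so p-values measure the spread between these libraries.

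The receptors of this term fall into a few families. Most cross the membrane 7 times and pass the signal to G proteins, which then act on adenylyl cyclase or phospholipase C. Others are channels that a bound transmitter opens, such as the nicotinic acetylcholine, GABA-A, glutamate and P2X receptors, and a few are cytokine-type receptors. Many are known from neurons, and hepatocytes are known to carry some of them, in particular receptors for nucleotides, catecholamines and vasoactive peptides.

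Library totals lay between 49929024 and 60441515 counts. Over all tested genes, which are not independent replicates, the log2 CPM of the libraries correlated at Pearson's r of 0.972 to 0.975 within a group and at 0.964 to 0.967 between groups. LINC01977 itself had counts of 4, 0 and 16 in shNC and of 0, 0 and 4 in shLINC01977, so the table measures the targeted RNA poorly. The 9 hepatocyte and HepG2 markers summed to 4444 to 4813 FPKM in shNC and 3128 to 3195 in shLINC01977, where FPKM is the number of fragments scaled to transcript length and library size. This drop was not shared alike by all 9. ALB, APOA1, SERPINA1, AFP, HNF4A, TF and FGB were lower in shLINC01977 (edgeR adjusted p under 0.05, test described below). ALB went from a mean of 1456 FPKM in shNC to 713 in shLINC01977, FGB from 68.1 to 33.3 and SERPINA1 from 348 to 300. APOB, at 350 and 367, and TTR, at 11.1 and 10.3, did not pass. None of 7 neuronal markers reached a mean of 1 FPKM, and their sum was 0.280 to 0.373 in shNC and 0.222 to 0.571 in shLINC01977. The sum of endothelial markers was 0.266 to 0.441 and 0.220 to 0.315. Leukocyte markers summed to 10.5 to 13.1 and 14.2 to 16.5, nearly all of it from CD68, while PTPRC had 4 counts in 1 library. Fibroblast markers summed to 2.17 to 3.37 and 3.98 to 5.68, nearly all of it from COL1A1. The part of these marker shifts in the results was not tested. In bulk RNA, fewer cells of a kind and less RNA per cell cannot be told apart.

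Most of the 160 genes were barely detected, but not all. The median gene had a mean of 0.0259 FPKM over the 6 libraries, against 0.331 for all genes of the table. A mean of at least 1 FPKM was reached by 22 genes and a mean of at least 0.5 FPKM by 31. By counts, 34 genes were measured well, with a mean of at least 100 counts per library, and 31 had a mean of 10 to 100. Another 62 were sparse, at 1 to 10, and 33 lay under 1 count per library. All 6 libraries held a count for 65 genes, while 39 genes had a count in 1 library only. The 3 genes with the most counts, F2RL1, PARD3 and GABRE, made up 46.4% of the counts of the whole set, and the top 10 made up 73.2%. The label of genes at low levels therefore holds for most of the set but not for its top.

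**Figure D1:**
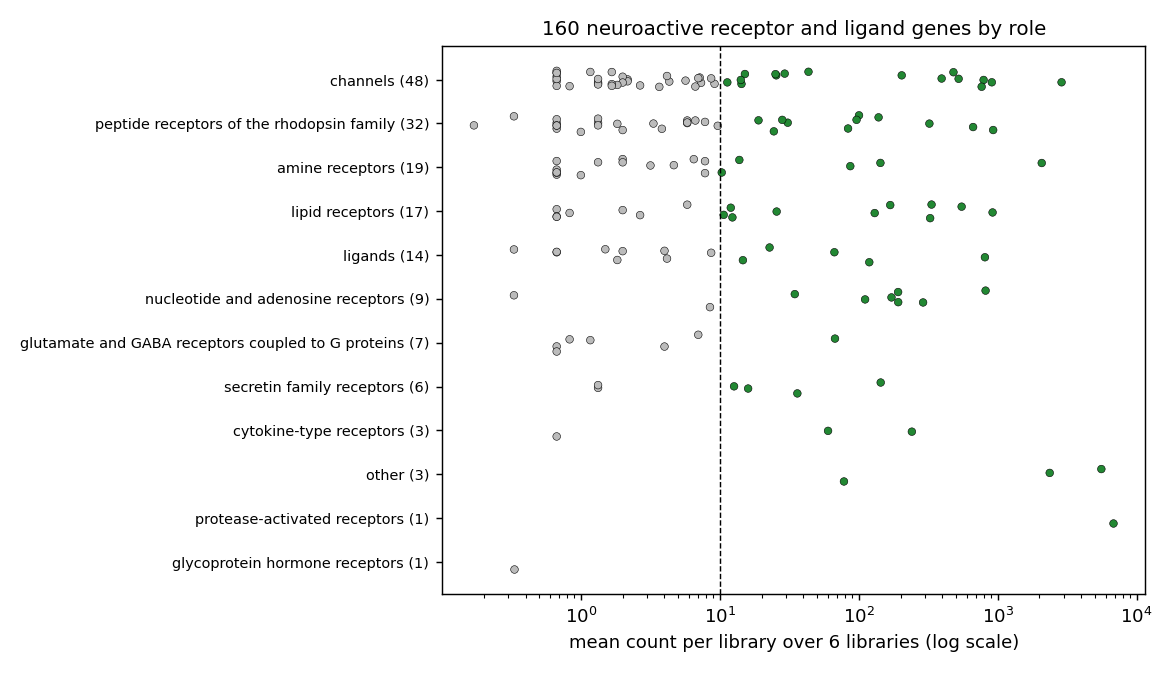
Mean count per library over the 6 libraries (log scale) for each of the 160 genes, arranged by role with the number of genes in parentheses; each point is 1 gene, and green points right of the dashed line at 10 counts were tested. The receptors of nucleotides and lipids lay mostly right of the line, and most channels, amine receptors and peptide receptors lay left of it.

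Low counts in this table were not spread evenly over the whole numbers. Of the 960 gene and library pairs of the set, 354 (36.9%) were at 0. Of the 291 pairs with 1 to 19 counts, 174 (59.8%) were multiples of 4, and 104 pairs held exactly 4 counts against 4 pairs with 3 and 8 pairs with 5. For 25 of the 33 genes under 1 count per library, the whole evidence was 4 counts in 1 library. A value of 4 may therefore stand for 1 event, and no statement about presence is made for such genes.

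Differences between the groups were tested with edgeR on the counts of all 17665 genes with a mean of at least 10 counts per library, with Benjamini-Hochberg adjustment over all of them. Of the 160 genes, 65 entered this test. HTR7 and PTGER1 passed the filter with a mean under 10 in shNC, and DRD4 passed it with a mean under 10 in shLINC01977, so these 3 entered through 1 group.

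With the adjusted p held under 0.05, a higher level in shLINC01977 was found for 8 of the 65 (12.3%), where 5.29% of all tested genes were higher, and 3 were lower (4.62%), where 6.39% of all tested genes were lower. The 8 were F2RL1, GABRE, GRIN2D, LPAR6, CHRNA5, NTSR1, ADRA1D and MCHR1, and the 3 were SSTR5, P2RY11 and KISS1R. By the thresholds of the study's methods, that is a change of 2-fold or more at an unadjusted p up to 0.05, a higher level was found for 8 genes (12.3%, against 3.03% of all tested genes) and a lower one for 1 (1.54%, against 1.42%). Those 8 were LPAR6, NTSR1, ADRA1D, MCHR1, ADORA2A, GIPR, GABBR1 and PTGER1, and the lower one was KISS1R. PTGER1 passed the count filter only through the group where it was higher, and without it the share was 7 of 64 (10.9%). The median log2 fold change of the 65 was 0.26, against 0.0038 for all tested genes.

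These shares differed with depth. Among the 34 genes with at least 100 counts per library, 8 were higher (23.5%) and 2 lower (5.88%) by adjusted p, against 6.50% and 8.59% of all 12753 genes at that depth. Among the 31 with 10 to 100 counts, none was higher and 1 was lower by edgeR, against 2.16% and 0.672% of 4912 genes. At an unadjusted p under 0.05, 2 of these 31 were higher and 1 lower, and DESeq2 called 1 higher and 1 lower. The shares of all genes at that depth were not counted by these rules. By the 2-fold thresholds of the study's methods, 6 of the 34 were higher (17.65%) and 0 lower. Of all genes at that depth, 1.51% and 0.933% were. Of the 31, 2 were higher (6.45%) and 1 lower (3.23%), near the 6.98% and 2.67% of all genes at 10 to 100 counts. The median standard error of a log2 fold change was 0.17 for the first class and 0.56 for the second. In the second, even changes past 2-fold could miss an adjusted p of 0.05. CHRNE at 1.34 ± 0.64 (edgeR adjusted p = 0.235) and GABBR1 at 1.23 ± 0.37 (0.0824) missed it, while KISS1R at -1.43 ± 0.27 passed.

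**Figure D2:**
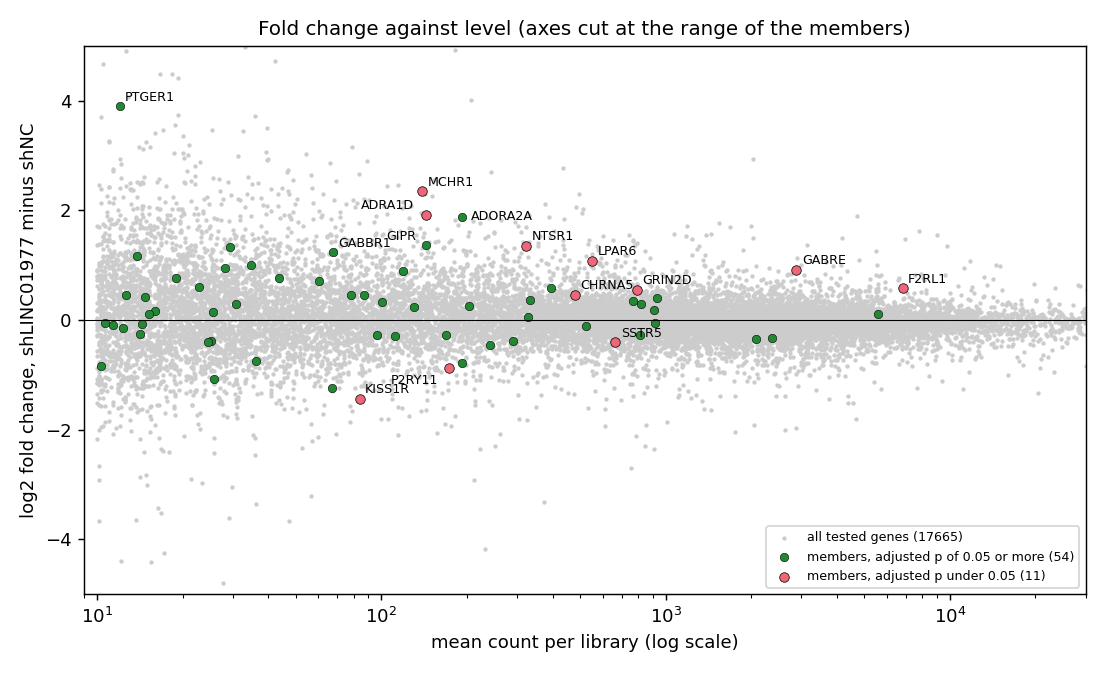
Log2 fold change (shLINC01977 minus shNC) against mean count per library (log scale) for all 17665 tested genes in grey and for the 65 tested neuroactive genes in colour; red marks the 11 with an adjusted p under 0.05, and genes past either threshold are named. The named genes with a higher level stretch from F2RL1 at a mean of 6815 counts down to PTGER1 at 12.

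6 genes kept an adjusted p under 0.05 in all 15 fits run, that is in this fit, in 8 fits with another scaling, filter, tool or unit or with a replicate block, and in 6 with 1 library left out each: F2RL1, GABRE, GRIN2D, NTSR1, ADRA1D and MCHR1. All 6 were higher in shLINC01977. They comprise 1 protease-activated receptor, 2 channel subunits, 2 peptide receptors and 1 amine receptor. The other 5 were called, that is had an adjusted p under 0.05, in 3 to 10 of the fits.

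The regions upstream of these genes are shown because these genes kept the call in every fit. RefSeq (GRCh38.p14) gave an upstream window for F2RL1, GABRE, GRIN2D and NTSR1. For ADRA1D and MCHR1 the table used here gave no entry. The windows end before the first annotated start, run 5′ to 3′ on the gene's strand, and have each CG dinucleotide in capitals.
F2RL1 (chr5:76818780-76818932, + strand): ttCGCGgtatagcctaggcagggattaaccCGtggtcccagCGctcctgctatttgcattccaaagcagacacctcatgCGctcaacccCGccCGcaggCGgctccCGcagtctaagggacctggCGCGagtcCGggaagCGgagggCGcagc
GABRE (chrX:151974681-151974926, - strand): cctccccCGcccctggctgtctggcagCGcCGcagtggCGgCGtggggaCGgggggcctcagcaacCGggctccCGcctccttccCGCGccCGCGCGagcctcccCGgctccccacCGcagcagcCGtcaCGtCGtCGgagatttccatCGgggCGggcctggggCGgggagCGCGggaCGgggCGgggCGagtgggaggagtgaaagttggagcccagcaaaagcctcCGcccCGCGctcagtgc
GRIN2D (chr19:48393418-48393667, + strand): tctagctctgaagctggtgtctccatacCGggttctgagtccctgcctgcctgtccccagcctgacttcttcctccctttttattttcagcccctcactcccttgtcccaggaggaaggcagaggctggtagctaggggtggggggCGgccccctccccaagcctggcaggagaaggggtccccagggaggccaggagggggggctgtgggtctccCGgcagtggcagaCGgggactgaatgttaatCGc
NTSR1 (chr20:62708586-62708835, + strand): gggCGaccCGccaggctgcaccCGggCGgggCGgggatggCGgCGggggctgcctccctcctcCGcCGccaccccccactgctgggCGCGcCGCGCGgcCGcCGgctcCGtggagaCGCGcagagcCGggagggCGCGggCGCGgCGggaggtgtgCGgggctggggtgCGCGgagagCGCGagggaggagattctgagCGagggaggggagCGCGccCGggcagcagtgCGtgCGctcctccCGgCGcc
The windows differ in CG content. NTSR1 held 38 CG in 250 bases, at 0.928 of the number its base composition would give, and GABRE held 30 in 246 bases, at 0.835. F2RL1 held 14 in 153 bases, at 0.876. GRIN2D stood apart with 5 in 250 bases, at 0.198. Over the full RefSeq windows of 250 bases before to 50 after the start, the ratio was above that of 76.7% of 35116 entries for F2RL1, 84.3% for GABRE and 82.6% for NTSR1, but of 30.1% for GRIN2D. The start RefSeq gives for GRIN2D lies upstream of the start in the deposited table, so that window does not adjoin the table's start. The TATA box letters TATAAA, the cAMP response element TGACGTCA and the AP-1 site TGAGTCA were searched on both strands. The full windows of these 4 genes held none of them, while they stood in 11.5%, 1.85% and 4.95% of the full windows of all entries. Only 118 of the 160 genes (73.8%) had an entry, under the 80% needed, so no such property was compared over the set.

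F2RL1 (ENSG00000164251; chromosome 5, 76818933 to 76835315, + strand) encodes protease-activated receptor 2, a G protein-coupled receptor that trypsin-like proteases switch on by cutting its outer end. It had the highest level of the set per length, 34.1 FPKM on average. Its counts were 5603, 5012 and 5359 in shNC and 8014, 9376 and 7526 in shLINC01977. Every shLINC01977 library lay above every shNC library, and in FPKM the spread within a group was small, with 24.6 to 27.4 in shNC and 40.8 to 42.6 in shLINC01977. In CPM, counts scaled by TMM to a common library size, the level was 98.6 ± 6.38 in shNC and 147 ± 4.64 in shLINC01977 (SD, n = 3), a log2 fold change of 0.58 ± 0.063 (SE; edgeR adjusted p = 0.00265). No other listed gene overlaps F2RL1. It was the only protease-activated receptor of the set, since F2R and F2RL2 carry the coagulation term and were left out by the rule.

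The rhodopsin-family peptide receptors were the second largest class, with 32 genes of which 11 were tested. By adjusted p, 2 were higher and 2 lower, where 5.29% and 6.39% of all tested genes were. Their log2 fold changes reached from -1.43 for KISS1R to 2.35 for MCHR1.

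MCHR1 (ENSG00000128285; chromosome 22, 40678750 to 40682814, + strand) encodes a receptor of melanin-concentrating hormone, a peptide known for its part in feeding. Its counts were 32, 40 and 61 in shNC and 285, 231 and 185 in shLINC01977. The groups did not overlap, and every shLINC01977 library stood well above every shNC library. The level was 0.813 ± 0.226 CPM in shNC and 4.15 ± 0.849 CPM in shLINC01977 (n = 3 each), a log2 fold change of 2.35 ± 0.28 (edgeR adjusted p = 0.00333). In FPKM it went from 0.215 to 1.17, so its level remained low in both groups. With 1 library left out, the log2 fold change lay between 2.16 and 2.57.

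NTSR1 (ENSG00000101188; chromosome 20, 62708837 to 62762771, + strand) encodes the high-affinity receptor of neurotensin, a gut and brain peptide. Counts of 192, 160 and 175 in shNC faced 445, 542 and 422 in shLINC01977. The libraries of each group stood close together and the groups did not overlap, with 3.25 ± 0.274 CPM against 8.32 ± 0.440 CPM. It differed by a log2 fold change of 1.35 ± 0.13 (edgeR adjusted p = 0.00167), the smallest adjusted p of the set. AL357033.2, a gene on the other strand that overlaps NTSR1, had at most 4 counts in any library.

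SSTR5 encodes a somatostatin receptor, which inhibits adenylyl cyclase, and was the fifth highest gene of the set at 7.19 FPKM. Its counts were 736, 631 and 875 in shNC and 540, 646 and 567 in shLINC01977. After scaling, shNC was higher, 13.7 ± 1.07 CPM against 10.4 ± 0.621 CPM, without overlap. The log2 fold change of -0.40 ± 0.10 had an edgeR adjusted p of 0.0499. It was called in 3 of 15 fits and lost the call with any 1 of the 6 libraries left out (edgeR adjusted p 0.0714 to 0.140), so it stood at the threshold.

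KISS1R encodes the receptor of kisspeptin, a peptide known for its control of reproductive hormones. Its counts were 87, 117 and 160 in shNC and 53, 45 and 41 in shLINC01977. All shNC libraries were higher, at 2.23 ± 0.576 CPM against 0.825 ± 0.114 CPM. The log2 fold change was -1.43 ± 0.27 (edgeR adjusted p = 0.0189), and it was called in 10 of 15 fits. The call was lost without shLINC01977 replicate 2 or 3 or shNC replicate 2 or 3 (edgeR adjusted p 0.0598 to 0.0699).

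The other 7 tested peptide receptors did not pass either threshold. MC1R, the melanocortin receptor known from pigment cells, had counts of 400, 936 and 1027 in shNC and 1355, 740 and 1114 in shLINC01977. These libraries differed by more within a group than between groups, and TCF25 and 2 further listed genes overlap it. OXTR, the oxytocin receptor, had 79 to 94 counts in shNC and 97 to 134 in shLINC01977, with a log2 fold change of 0.33 ± 0.22. OPRL1, the nociceptin receptor, had 84 to 124 and 74 to 99. The relaxin-family receptor RXFP4 had 10 to 42 and 23 to 42, the galanin receptor GALR2 had 15 to 21 and 24 to 58, the somatostatin receptor SSTR3 had 25 to 33 and 15 to 31, and the delta opioid receptor OPRD1 had 4 to 31 and 23 to 25. GALR2 was higher in every shLINC01977 library, at a log2 fold change of 0.96 ± 0.44 (edgeR adjusted p = 0.221).

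Among the 14 sparse peptide receptors, AGTR1, the angiotensin II receptor, was the highest gene of the whole set below the filter. Its counts were 8, 0 and 14 in shNC and 12, 8 and 16 in shLINC01977. Counts in 5 libraries were also held by AVPR2 (47 in total), SSTR2 (40), GNRHR (35) and SSTR1 (35). In 3 libraries there were counts of MLNR (35 in total), FPR3 (20) and FPR1 (12), and in 2 libraries of GPR83 (23), UTS2R (11), GALR3 (8), TACR2 (8) and APLNR (6). TACR1 had 8 counts in 1 library. Of the 7 under 1 count per library, AVPR1B, GALR1, GRPR, NPFFR1 and OPRK1 had 4 counts in 1 library, HCRTR1 had 2 and NPBWR1 had 1.

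Of the 19 amine receptors, which bind catecholamines, acetylcholine, histamine, serotonin or dopamine, 5 were tested. ADRA1D was higher by adjusted p. The most abundant one was ADRA2C.

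ADRA1D (ENSG00000171873; chromosome 20, 4220631 to 4249074, - strand) encodes an alpha-1 adrenergic receptor, which couples to phospholipase C. It had counts of 49, 53 and 72 in shNC and of 265, 239 and 182 in shLINC01977. The groups were far apart, at 1.07 ± 0.163 CPM and 4.05 ± 0.644 CPM. The difference came to 1.92 ± 0.21 on the log2 scale (edgeR adjusted p = 0.00279), and between 1.79 and 2.04 with 1 library left out. No listed gene overlaps it.

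ADRA2C encodes an alpha-2 adrenergic receptor, which lowers cyclic AMP, and was second in the set at 14.1 FPKM. Its counts were 2390, 1991 and 2491 in shNC and 2125, 1869 and 1595 in shLINC01977. In CPM all shNC libraries were higher, at 42.2 ± 1.79 against 33.1 ± 4.40. Its log2 fold change of -0.35 ± 0.10 did not pass (edgeR adjusted p = 0.0754), but passed with DESeq2 (adjusted p = 0.0203) and without shLINC01977 replicate 1 (edgeR adjusted p = 0.0240). The 2 adrenergic receptors that were tested thus had log2 fold changes of opposite sign.

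HRH2, a histamine receptor, had 55 to 84 counts in shNC and 67 to 152 in shLINC01977, with overlap. The serotonin receptor HTR7 had 4 to 17 and 4 to 35, and the dopamine receptor DRD4 had 9 to 16 and 4 to 12. Among the sparse amine receptors, HTR2B (47 counts in total) and CHRM4 (28) were above 0 in 5 libraries, CHRM5 (47) and HRH1 (39) in 4. HTR1D (19), HRH3 (12) and ADRB3 (6) were above 0 in 2 libraries and DRD1 (8) in 1. ADRA1B, ADRA2B, HTR6, TAAR6 and TAAR8 had 4 counts in 1 library.

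The receptors of lipid mediators were counted better, with 10 of 17 tested. LPAR6, a receptor of lysophosphatidic acid, was the only one with an adjusted p under 0.05. Its counts were 320, 327 and 368 in shNC and 546, 1188 and 555 in shLINC01977. The shLINC01977 libraries were all higher, but replicate 2 had about 2 times the counts of the others, so that the level of 13.3 ± 5.26 CPM, against 6.26 ± 0.374 in shNC, had a wide spread. The log2 fold change was 1.09 ± 0.26 (edgeR adjusted p = 0.0422), and 0.71 without that library (edgeR adjusted p = 0.0349). LPAR6 was called in 8 of 15 fits, and the call was lost without shLINC01977 replicate 3 or any 1 shNC library (edgeR adjusted p 0.0599 to 0.121). LPAR6 lies within RB1 on the opposite strand, and RB1 had a log2 fold change of 0.08 ± 0.076 (edgeR adjusted p = 0.548).

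PTGER1, a prostaglandin E2 receptor, passed the fold rule only. Its counts were 4, 0 and 0 in shNC and 29, 27 and 12 in shLINC01977. The shNC group held 4 counts in all, so the fitted log2 fold change of 3.90 ± 1.07 (edgeR adjusted p = 0.0630) rests on them. Without shNC replicate 1 it became 7.47 (edgeR adjusted p = 0.0384) with nothing left in that group, and it is no measure of size there.

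LTB4R, a receptor of leukotriene B4 with a level of 3.04 FPKM, had 832 to 1062 counts in shNC and 821 to 1065 in shLINC01977. Its log2 fold change was -0.06 ± 0.13 and turned positive under other scalings. LTB4R2, the second leukotriene B4 receptor, overlaps it on the same strand and had 232 to 361 and 322 to 354 counts. PTAFR, the receptor of platelet-activating factor, had 268 to 301 and 361 to 408 counts without overlap, with a log2 fold change of 0.37 ± 0.11 (edgeR adjusted p = 0.0926). The sphingosine 1-phosphate receptors S1PR2, S1PR4 and S1PR3 had 152 to 203, 26 to 41 and 8 to 12 counts in shNC and 124 to 190, 10 to 30 and 4 to 16 in shLINC01977. LPAR2 had 80 to 151 and 139 to 146, and TBXA2R, the thromboxane receptor, had 8 to 19 and 6 to 17. None of these passed either threshold. The sparse S1PR5 (35 counts in total), LPAR1 (16) and CNR2 (12) had counts in 5, 3 and 1 libraries. PTGIR had 5 counts in 1 library, and LPAR3, PTGER3 and S1PR1 had 4.

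The nucleotide and adenosine receptors that couple to G proteins were mostly well counted, with 7 of 9 tested and 6 of them above 100 counts per library. P2RY11, which raises cyclic AMP in response to extracellular ATP, was lower. Its counts were 211, 202 and 248 in shNC and 94, 134 and 144 in shLINC01977. The groups did not overlap, at 4.07 ± 0.176 CPM and 2.22 ± 0.544 CPM, with a log2 fold change of -0.88 ± 0.21 (edgeR adjusted p = 0.0415). It was called in 6 of 15 fits, and of the fits with 1 library left out only the one without shLINC01977 replicate 3 kept the call (edgeR adjusted p = 0.0353, against 0.0912 to 0.117 in the other 5).

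P2RY11 shares its sequence with a read-through transcript, so its value may depend on how shared reads were divided, which was not tested. PPAN-P2RY11, the read-through row, had 578, 850 and 834 counts in shNC and 1409, 1324 and 774 in shLINC01977. Its log2 fold change was 0.56 ± 0.24 (edgeR adjusted p = 0.191), of the opposite sign, and that of PPAN was -0.37 ± 0.22. EIF3G, which overlaps on the other strand, had a log2 fold change of -0.01 ± 0.047.

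ADORA2A, an adenosine receptor that raises cyclic AMP, passed the fold rule through 1 library. Its counts were 73, 80 and 88 in shNC and 662, 88 and 164 in shLINC01977. After scaling the groups overlapped, and replicate 1 of shLINC01977 stood at about 4 times the next library. The log2 fold change was 1.88 ± 0.72 (edgeR adjusted p = 0.149), and 0.62 without that library (edgeR adjusted p = 0.372). The read-through row SPECC1L-ADORA2A had 546, 158 and 734 counts in shNC and 203, 527 and 99 in shLINC01977.

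ADORA2B, a related receptor with a lower affinity for adenosine, was seventh by level at 4.74 FPKM. It had 682 to 736 counts in shNC and 823 to 1027 in shLINC01977. All 3 shLINC01977 libraries were higher, at 16.3 ± 0.434 CPM against 13.3 ± 0.721 CPM, a log2 fold change of 0.30 ± 0.086 (edgeR adjusted p = 0.0713). It passed in 4 of 15 fits.

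Among the P2Y receptors, P2RY2, a receptor of ATP and UTP known from hepatocytes, had 260, 137 and 329 counts in shNC and 115, 156 and 156 in shLINC01977. The groups overlapped in CPM and the log2 fold change was -0.79 ± 0.29 (edgeR adjusted p = 0.134). P2RY8 had 314 to 328 and 214 to 310 counts, P2RY6, a UDP receptor, had 85 to 142 and 81 to 114, and P2RY4 had 11 to 42 and 37 to 58. ADORA1 was sparse, with 4 to 17 counts in every library, and ADORA3 had 2 counts in 1 library.

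Of the 6 receptors of the secretin family, which bind peptide hormones and raise cyclic AMP, 4 were tested. GIPR, the receptor of the incretin GIP, passed the fold rule only. Its counts were 118, 68 and 45 in shNC and 222, 273 and 138 in shLINC01977. The groups did not overlap, at 1.44 ± 0.703 CPM and 3.70 ± 0.926 CPM, with a log2 fold change of 1.36 ± 0.39 (edgeR adjusted p = 0.0724). Without shNC replicate 1 it was 1.79 and passed (edgeR adjusted p = 0.0455), and it passed in 4 of 14 fits. GLP2R had 19 to 59 counts in shNC and 23 to 35 in shLINC01977, the secretin receptor SCTR had 9 to 19 and 13 to 24, and VIPR1 had 10 to 12 and 4 to 24. CALCRL and VIPR2 had 8 counts in total, each in 2 libraries.

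Among the 7 glutamate and GABA receptors that couple to G proteins, GABBR1, a subunit of the GABA-B receptor, was the only one tested. Its counts were 42, 23 and 55 in shNC and 109, 68 and 108 in shLINC01977. The groups did not overlap, at 0.725 ± 0.239 CPM and 1.72 ± 0.531 CPM, and the log2 fold change was 1.23 ± 0.37 (edgeR adjusted p = 0.0824). UBD, which overlaps it on the same strand, was lower, at -0.92 ± 0.10 (edgeR adjusted p = 0.00272). The partner subunit GABBR2 had 42 counts in total over 5 libraries, so the receptor as a pair could not be followed. GRM4 had 7 in 1 library, GRM5 had 5 in 2, and GRM3 and GRM8 had 4 in 1. TSHR, the only glycoprotein hormone receptor, had 2 counts in 1 library.

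Of the 3 cytokine-type receptors, PRLR, the prolactin receptor, had 164, 304 and 358 counts in shNC and 235, 188 and 199 in shLINC01977. The groups overlapped, with a log2 fold change of -0.46 ± 0.29 (edgeR adjusted p = 0.369). LEPR, the leptin receptor, had 27 to 60 and 50 to 105 counts and overlaps LEPROT. GHR, the growth hormone receptor known from liver, had 4 counts in 1 library.

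**Figure D3:**
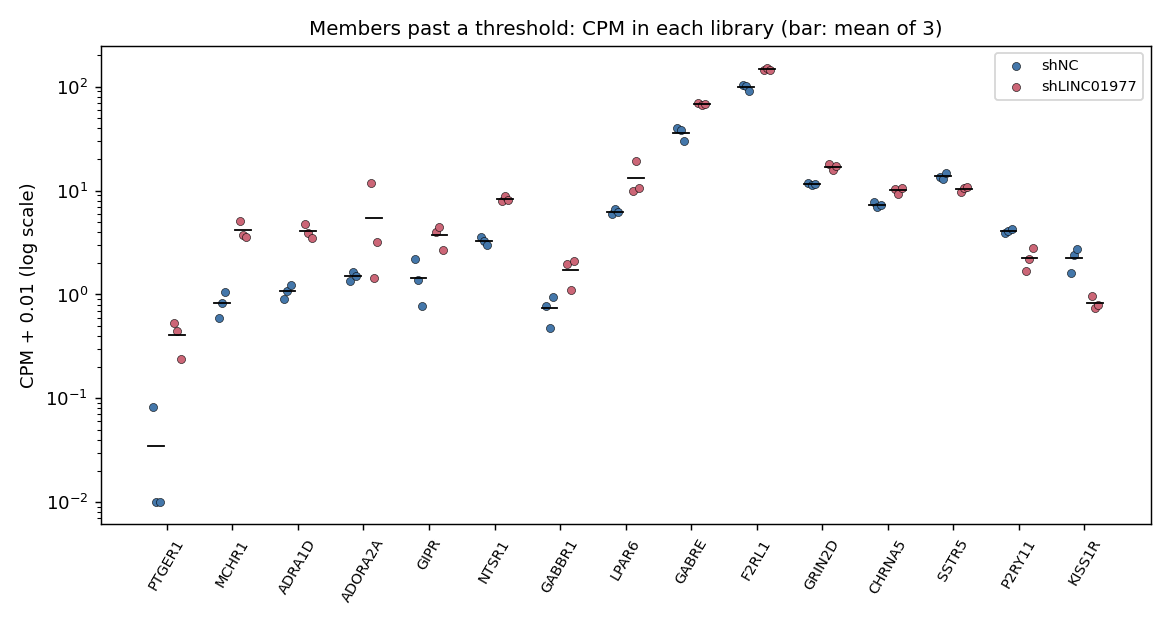
CPM + 0.01 (log scale) in each of the 6 libraries for the 15 genes past either threshold, with shNC in blue, shLINC01977 in red and a bar at the mean of 3. The wide spread within shLINC01977 is seen for ADORA2A and LPAR6, and PTGER1 rests on 1 shNC library above 0.

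The channels were the largest class with 48 genes, of which 16 were tested. By adjusted p 3 of the 16 were higher by edgeR, where 5.29% of all tested genes were. DESeq2 called 4 higher, and 1448 of all 17665 tested genes. No channel was called lower by edgeR or DESeq2, and none at an unadjusted p under 0.05 either (0 in each). Of all tested genes 6.39% were lower by edgeR, so none of 16 lies near that share. The 3 higher by edgeR were GABRE, GRIN2D and CHRNA5, 1 subunit each of a GABA-A, an NMDA and a nicotinic receptor.

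GABRE (ENSG00000102287; chromosome X, 151953124 to 151974680, - strand) encodes the epsilon subunit of the GABA-A receptor, a chloride channel. It was eighth by level at 4.45 FPKM. Counts were 2174, 1872 and 1772 in shNC and 3877, 4086 and 3531 in shLINC01977. The groups were far apart, at 36.0 ± 5.16 CPM and 68.1 ± 1.61 CPM, with a log2 fold change of 0.92 ± 0.11 (edgeR adjusted p = 0.00331). The microRNA genes MIR452 and MIR224 lie within it and had at most 1 count in any library. Apart from the rho-type subunit GABRR3, with a mean of 14.17 counts, the other GABA-A subunits were sparse or under 1 count per library. GABRE was thus the only one of them measured well.

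GABRA3, the alpha-3 subunit, lies on chromosome X too and was among the highest genes below the filter. It had no count in any shNC library and 10, 34 and 8 counts in shLINC01977. No fold is given against a group at 0. GABRR3, a subunit of the related rho type, had 8 to 23 counts in shNC and 7 to 16 in shLINC01977.

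GRIN2D (ENSG00000105464; chromosome 19, 48394875 to 48444931, + strand) encodes an NMDA-type glutamate receptor subunit. Its counts were 641, 561 and 683 in shNC and 1005, 975 and 890 in shLINC01977. The shNC libraries were nearly equal in CPM, at 11.6 ± 0.206, and all shLINC01977 libraries were higher, at 17.0 ± 1.11. On the log2 scale the difference was 0.55 ± 0.089 (edgeR adjusted p = 0.0104). An NMDA channel needs the GRIN1 subunit as well, and GRIN1 had 14, 59 and 19 counts in shNC and 33, 74 and 62 in shLINC01977, with a log2 fold change of 0.76 ± 0.64 (edgeR adjusted p = 0.499). GRIN2C had 25 to 32 and 14 to 31 counts, and GRIN3A had 8 to 25 and 10 to 24. GRIN3B (43 counts in total) and GRIN2B (40) were sparse, and GRIN2A had 11 counts in 2 libraries.

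CHRNA5 encodes a nicotinic acetylcholine receptor subunit that joins other alpha and beta subunits. Its counts were 422, 342 and 425 in shNC and 580, 569 and 547 in shLINC01977. The groups did not overlap, at 7.31 ± 0.415 CPM and 10.1 ± 0.710 CPM, with a log2 fold change of 0.46 ± 0.11 (edgeR adjusted p = 0.0390). It was called in 7 of 15 fits and lost the call with any 1 library left out (edgeR adjusted p 0.0656 to 0.113). Its neighbour CHRNA3, which overlaps its end on the other strand, had 15 to 36 counts in shNC and 23 to 31 in shLINC01977, at a log2 fold change of 0.15 ± 0.43, and CHRNB4, another gene known from that cluster, had 25 counts in total.

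CHRNB1, the beta subunit of the muscle-type receptor, was ninth by level at 3.10 FPKM. It had 748 to 869 counts in shNC and 959 to 1045 in shLINC01977, and overlapped in CPM, with a log2 fold change of 0.19 ± 0.13 (edgeR adjusted p = 0.394). CHRNA7 had 139 to 228 and 216 to 233 counts, CHRNE 6 to 25 and 17 to 62, and CHRNA9 had 0 to 23 and 5 to 30. The other muscle-type subunits CHRND (44 counts in total), CHRNG (34) and CHRNA1 (12) were sparse. CHRNA10 was second among the genes below the filter, with 7, 19 and 15 counts in shNC and 4, 10 and 0 in shLINC01977, and NUP98 overlaps it. CHRNB2 had 22 counts in total, and CHRNA2 and CHRNB3 had 4.

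Of the ATP-gated P2X channels, P2RX4, the most abundant, had 602 to 706 counts in shNC and 697 to 1122 in shLINC01977, with a log2 fold change of 0.34 ± 0.17 (edgeR adjusted p = 0.244). P2RX5 had 248 to 378 and 424 to 574 counts without overlap, at 0.58 ± 0.17 (edgeR adjusted p = 0.0815), and the read-through row P2RX5-TAX1BP3 overlaps it. P2RX1 had 4 to 22 and 4 to 22 counts. P2RX6 (16 counts in total), P2RX3 (13) and P2RX7 (13) were sparse. TRPV1, the capsaicin receptor, had 434 to 676 and 489 to 527 counts, with a log2 fold change of -0.10 ± 0.14.

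Other channel subunits carried few counts. Totals over the 6 libraries were 42 for GRIK1, 26 for GLRB, 12 for GABRA2, 10 for GRID1 and GRIK4, and 8 for GLRA2, GRIA4 and GRIK2. GRIA2 had 5 counts in 1 library. GABRA4, GABRQ, GABRR2 and GRIK3 had 4 counts in 1 library.

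Of the 14 ligand genes, 5 were tested and none passed either threshold. By edgeR 1 of them, UCN2, was under an unadjusted p of 0.05, a share not counted over all tested genes. DESeq2 called 0 of the 5, and 1448 higher and 1605 lower of all 17665 tested genes. NMB, which encodes neuromedin B, a bombesin-like peptide, was among the 4 highest genes at 11.7 FPKM. Its counts were 886, 726 and 1008 in shNC and 737, 710 and 794 in shLINC01977, with overlap in CPM and a log2 fold change of -0.27 ± 0.13 (edgeR adjusted p = 0.238). UCN2, a peptide of the corticotropin-releasing family, had 106, 82 and 55 counts in shNC and 174, 124 and 174 in shLINC01977. It was higher in all 3 libraries, by 0.90 ± 0.33 (edgeR adjusted p = 0.137).

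NPB, which encodes neuropeptide B, was the least even gene of the tested set. Its counts were 9, 113 and 163 in shNC and 0, 0 and 116 in shLINC01977. Libraries of the same group differed by more than 10 times, and PCYT2 and ANAPC11 overlap it. APLN, which encodes apelin, had 8 to 32 and 16 to 46 counts, and CORT, cortistatin, had 5 to 26 and 11 to 27. LHB, with 52 counts in total, was tied with GABRA3 for mean count and overlaps RUVBL2. PYY (25 counts in total) had counts in 5 libraries, TAC3 (24) in the 3 of shLINC01977, TAC4 (11) and GH2 (9) in 2, and TRH (12) in 1. EDN2 and GRP had 4 counts and CCK had 2, each in 1 library.

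3 genes of the term fit none of these roles. PARD3, which encodes a scaffold of cell polarity and is not a receptor, reached a level of 12.7 FPKM. Its counts were 5264, 5188 and 5231 in shNC and 5962, 6580 and 5250 in shLINC01977, with overlap in CPM and a log2 fold change of 0.12 ± 0.072 (edgeR adjusted p = 0.352). GPR35, a G protein-coupled receptor known from the gut, was sixth at 6.89 FPKM. Its counts were 2666, 2322 and 2795 in shNC and 2370, 1957 and 2113 in shLINC01977, lower in CPM in each shLINC01977 library, with a log2 fold change of -0.32 ± 0.11 (edgeR adjusted p = 0.122). TSPO, a protein of the outer mitochondrial membrane, had 35 to 83 counts in shNC and 84 to 97 in shLINC01977, at 0.46 ± 0.33 (edgeR adjusted p = 0.419).

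**Figure D4:**
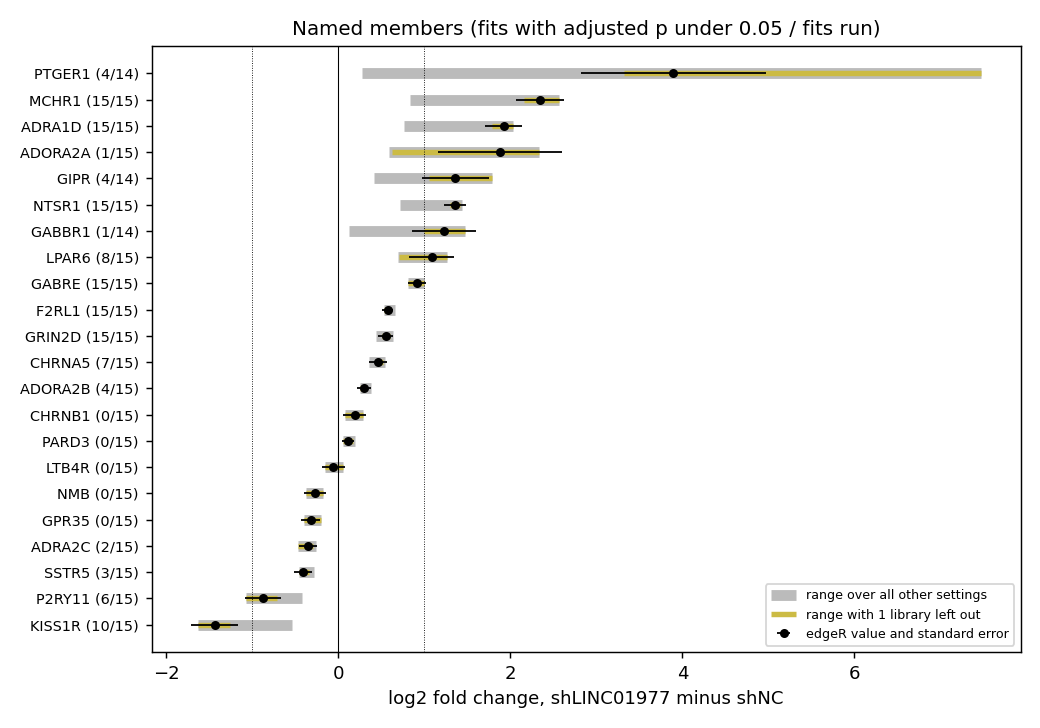
Log2 fold change (shLINC01977 minus shNC) of 22 genes, the 15 past either threshold and the others of the 10 highest by FPKM. Black points and bars give the edgeR value and its standard error, and yellow bars the range with 1 library left out. Grey bars give the range over all settings, those with 1 library left out included, and the brackets how many fits had an adjusted p under 0.05. F2RL1, GABRE, GRIN2D, NTSR1, ADRA1D and MCHR1 passed in 15 of 15 fits, and grey bars toward 0 come from fits on FPKM with a pseudocount.

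Summed over all 160 genes, the level was 544, 554 and 521 CPM in shNC and 674, 636 and 646 CPM in shLINC01977. The means were 539.6 ± 17.2 and 651.6 ± 19.7 CPM (ratio 1.21), the groups did not overlap, and the exact two-sided permutation test gave p = 0.1, the smallest that 3 libraries against 3 allow. Most of this difference of 112 CPM lay in the genes with the most counts. Without F2RL1 it was 63.4 CPM, and without F2RL1, PARD3 and GABRE it was 23.3 CPM (exact permutation p = 0.2). Of these 3, PARD3 changed least, from 97.0 to 105.1 CPM, against 98.6 to 147 for F2RL1 and 36.0 to 68.1 for GABRE.

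The genes below the filter more often had a count in the shLINC01977 libraries. Of the 95, a count above 0 was held by 26, 35 and 30 in shNC and by 49, 40 and 41 in shLINC01977 (exact permutation p = 0.1, the smallest possible). As shares these were 27.4% to 36.8% and 42.1% to 51.6%. All 11488 genes below the filter lay closer together, at 42.4% to 46.3% in shNC and 46.5% to 49.5% in shLINC01977. For these too the groups did not overlap (means of 5093 and 5526 genes above 0, exact permutation p = 0.1). The cause of these differences was not tested. No count in any shNC library was recorded for 37 of the 95 (39.0%, against 25.0% of all genes below the filter), and no count in any shLINC01977 library for 18 (19.0%, against 19.7%). Since 25 of the 95 rest on 4 counts in 1 library, the difference cannot be assigned to single receptors.

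**Figure D5:**
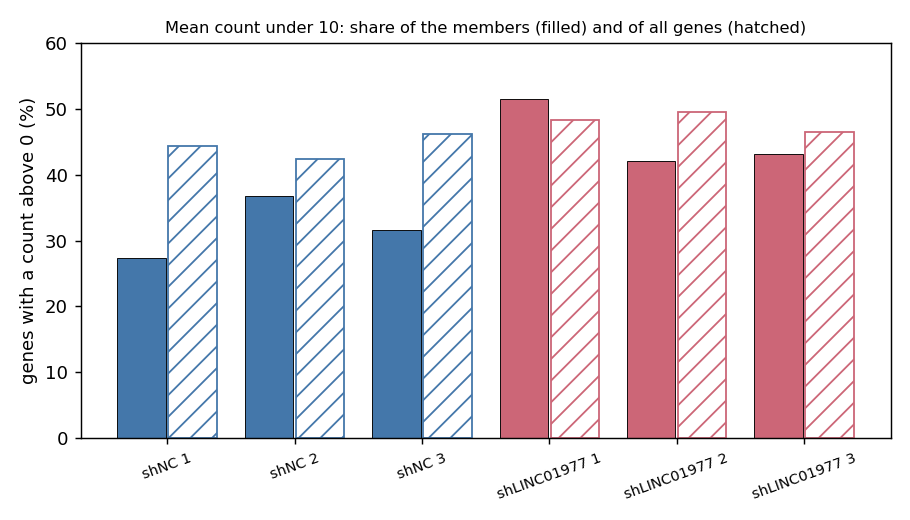
Share of genes with a count above 0 (%) in each library, for the 95 neuroactive genes with a mean under 10 counts (filled bars) and for all 11488 genes with a mean under 10 counts (hatched bars). The filled bars lie at 27.4% to 36.8% in shNC and 42.1% to 51.6% in shLINC01977, and the hatched bars differ less.

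Receptors of this kind act through G proteins and second messengers, so a list of those genes was read from the same fit. It held 62 genes, of which 56 were in the table and 42 were tested. By adjusted p 1 of the 42 was higher, where 5.29% of all tested genes were, and 6 were lower, where 6.39% were. The higher one was GRK3, a kinase that switches off activated receptors, with a log2 fold change of 0.44 ± 0.066 (edgeR adjusted p = 0.00783). The 6 lower ones were the gamma subunits GNG5 (-0.57 ± 0.055) and GNG10 (-1.01 ± 0.19), the inhibitory alpha subunits GNAI2 (-0.41 ± 0.046) and GNAZ (-0.39 ± 0.070), the adenylyl cyclase ADCY9 (-0.46 ± 0.073) and the receptor kinase GRK2 (-0.28 ± 0.060), with edgeR adjusted p between 0.00184 and 0.0273. By the fold rule, ADCY3 was higher and GNG10 and ADCY1 were lower. The median log2 fold change of the 42 was -0.14, against 0.0038 for all tested genes and 0.26 for the 65 receptor and ligand genes. GNAS, the stimulatory alpha subunit, had a log2 fold change of 0.07 ± 0.045 (edgeR adjusted p = 0.381).

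Of the 11 genes left out by the rule, 6 were tested. F2R, the thrombin receptor, had 1975, 1810 and 2243 counts in shNC and 2539, 3113 and 2320 in shLINC01977, with a log2 fold change of 0.34 ± 0.071 (edgeR adjusted p = 0.0244). The other 5 had log2 fold changes below 0 and did not pass. These were -0.59 ± 0.24 for THRA (edgeR adjusted p = 0.176), -0.27 ± 0.15 for NR3C1, -0.03 ± 0.095 for THRB, -0.22 ± 0.59 for C5AR1 and -0.08 ± 0.044 for F2, the gene of prothrombin.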

How the data were processed

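TRIzol was used for RNA extraction and an Illumina HiSeq instrument for sequencing. The submitters' processing notes list bcl2fastq 2.0, HISAT2, StringTie, DESeq2, limma and the hg38 build, without a strand setting. The authors deposited 1 table with pathway annotation. Its counts, as deposited, are unnormalized whole numbers for each gene. Its FPKM values, also deposited by the authors, are fragments divided by transcript length and library total. How reads shared by overlapping genes were divided is not given in the sources used here, and 52 of the 160 genes overlap another listed gene (gene intervals of the table). Coordinates are those of the table (GRCh38), as in GENCODE 29.

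Counts were tested with edgeR 4.0.16 in R 4.3.3 (quasi-likelihood test, TMM scaling, group only, Benjamini-Hochberg adjustment) over the 17665 genes with a mean of at least 10 counts in the 6 libraries. A count filter was used because an FPKM filter drops long genes that are well counted. CPM is counts scaled by TMM to a common library size. Summed levels went through a two-sided exact permutation test, whose smallest p is 0.1 for 3 libraries against 3. Alternatives were library totals, no filter, a mean FPKM of at least 0.5, counts divided by 4, DESeq2 1.42.0, limma 3.58.1 on log2(FPKM + 0.1) and log2(FPKM + 1), a replicate block and each library left out. After the data were seen, counts of genes that overlap no listed gene and sums without the top 3 genes were added.

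The genes, lists and tests were chosen with earlier results of these data known. Genes named are those past either threshold, the 10 highest by mean FPKM, the 3 highest below the filter, and the other genes of the set with their counts, except 6 of the 95 below the filter, which are not reported here. Library totals of 49929024 to 60441515 counts set the precision, and the standard errors given are those of the edgeR fit.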

Additional observations from a re-analysis of the deposited data

How the results depend on the processing

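Of 305 comparisons of a named gene under another setting, 243 kept their direction and their side of the threshold, 41 lost an adjusted p under 0.05, 16 gained one and 5 reversed. All 5 reversals were of LTB4R, whose log2 fold change of -0.06 became 0.0264 with library totals, 0.0296 with limma on log2(FPKM + 0.1) and 0.0221 with limma on log2(FPKM + 1), and lay between -0.151 and 0.0561 with 1 library left out (positive without shLINC01977 replicate 1 or shNC replicate 1). The cause of the changes below was not tested where it is not named.

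The 8 of 65 genes higher by adjusted p became 13 with DESeq2, where 1448 of all 17665 genes were higher. Of the 36 tested genes of the set that overlap no listed gene, 4 were higher, and with 1 library left out 6 to 8 of the 65 were. The share of all tested genes that overlap no listed gene was not counted. The 3 lower by adjusted p became 1 with library totals, 1 with limma on log2(FPKM + 0.1), and 0 to 2 with 1 library left out. Without any filter they became 1 of 160, where 852 of 29153 genes were lower. They were 0 without shLINC01977 replicate 2 or shNC replicate 3, and 1 without shLINC01977 replicate 3 or shNC replicate 1 or 2. The 8 of 65 past 2-fold and higher became 5 of the 31 tested with the FPKM filter, where 209 of 13452 genes were past it. With limma on log2(FPKM + 1) they became 0, where 58 of 17665 genes were past it. Of the 36 that overlap no listed gene, 3 were past it, a share not counted over all such genes. With 1 library left out, 7 to 10 of 65 were past it. The 1 past 2-fold and lower became 2 of 160 without any filter, where 351 of 29153 genes were past it. With limma on log2(FPKM + 1) it became 0, where 40 of 17665 genes were past it. With 1 library left out it was 1 to 3. It was 3 without shLINC01977 replicate 3 or shNC replicate 2, and 2 without shLINC01977 replicate 1. The difference in summed CPM of 112 became 145.3 with library totals, 63.4 without F2RL1, 23.3 without the top 3 genes, and 101 to 120 with 1 library left out. The 1 higher G protein or second-messenger gene became 2 with DESeq2 and 1 to 2 with 1 library left out (2 without shNC replicate 2 or 3), and the 6 lower became 9 with DESeq2, 6 with the FPKM filter, 5 with library totals, 5 with the replicate block and 4 to 5 with 1 library left out.

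Deviations of same-numbered libraries correlated at -0.004, 0.0009 and 0.020, so no effect shared by replicate number was seen. This cannot show whether the libraries were made in pairs, which the labels do not say. With the replicate number as a block, 7 genes were higher by adjusted p, 6 of them shared, and 0 were lower, with 575 higher and 746 lower of all genes. Among all genes the adjusted calls were 935 higher and 1129 lower, 1411 and 721 with library totals, 1448 and 1605 with DESeq2, 1317 and 693 with limma on log2(FPKM + 0.1), 1363 and 704 with limma on log2(FPKM + 1), and 486 to 641 and 625 to 732 with 1 library left out. Depth limits the 95 genes below the filter, where most counts are 0 or 4.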
